A study of Mus musculus with 10 samples.

Results

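The data described here are the RNA levels and chromatin accessibility of 10 ETS family transcription factors (*Elk1*, *Elk3*, *Elk4*, *Gabpa*, *Ets1*, *Ets2*, *Elf1*, *Elf2*, *Fli1* and *Spi1*) in sorted retinal cells after optic nerve crush (ONC). They were found by gene symbol among 53974 genes of the RNA-seq table. All 10 were among the 17555 genes that reached a TPM (transcript level scaled by length and by library) of 1 in 3 or more libraries and were tested. In the ATAC-seq table of 16600 regions, 6 regions lay within 1000 bp of an end of one of these genes.

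Every mouse was C57BL/6, 8 to 10 weeks old, and carried the floxed *Arid1a* allele (Arid1a fl/fl). *Arid1a* encodes a DNA-binding component of SWI/SNF, an ATP-driven complex that moves nucleosomes. Mice received AAV2-GFP (WT) or AAV2-Cre (cKO, Arid1a del/del) into the vitreous 2 weeks before ONC, with both transgenes under a CMV promoter, which is not specific to a cell type, so that any cell the virus entered could carry Cre. Retinas were taken 3 days after ONC, and live cells stained with an antibody to Thy1.2 were sorted from 4 to 5 pooled retinas per sample to enrich retinal ganglion cells (RGCs). There were 3 WT and 3 cKO libraries for RNA-seq and 2 of each label for ATAC-seq, and the comparisons ask how the ETS genes differed between the labels after injury.

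ETS proteins share a winged helix-turn-helix domain that binds DNA around the core GGAA, and the bases beside the core and the partner protein separate one member's sites from another's. ELK1, ELK3 and ELK4 are the ternary complex factors, which sit with serum response factor (SRF) on immediate early genes and are phosphorylated by the ERK kinases. GABPA works with a GABPB subunit and drives housekeeping genes and nuclear genes for mitochondria. ETS1, ELF1, FLI1 and SPI1 (PU.1) are best known from lymphoid, endothelial and myeloid cells, and binding sites of the family are common at open promoters of most cell types.

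Before the values, the libraries call for some care. *Arid1a* RNA was not lower under the cKO label. It was 18.8, 11.7 and 14.1 TPM in the WT libraries and 18.8, 27.9 and 25.0 TPM in the cKO libraries, a log2 fold change of 0.66 (SE 0.28, limma adjusted p = 0.274), so directions are given by label throughout. The TPM table does not separate the floxed exons from the rest of the gene. Of 12 RGC markers 9 reached the level needed for a test. *Pou4f2* was listed at 0 TPM in all WT libraries, *Pou4f3* at 0 TPM in all cKO libraries, and *Slc17a6* was at 0.593 to 1.57 TPM. *Rbpms*, an RNA-binding protein of most RGCs, was at 1.82 to 6.43 TPM, and *Nefl*, a neurofilament, at 5.47 to 20.6 TPM. Rod markers summed to between 13376 and 51387 TPM per library, and markers of T cells to between 128 and 1305 TPM. In ATAC-seq, 3.39% and 2.77% of the peaks of the cKO libraries overlapped a peak of the other cKO library, against 13.6% and 24.4% for the WT libraries, so the cKO libraries shared few peaks even with each other.

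Promoter sequence shows what the accessible regions of these genes contain. The stretches below lie inside ATAC-seq regions that had a peak in both WT libraries and in neither cKO library, and they run 5′ to 3′ on the gene's strand up to the start site or to the edge of a gene. Capitals mark the ETS core GGAA or its reverse complement TTCC, extended to CCGGAAG or CTTCCGG where those 7 bases were present. *Elk4* (chr1:132007370-132007576, plus strand) and *Gabpa* (chr16:84835020-84835049, plus strand, the site alone) are shown because they carry the 7-base form. *Elf2* (chr3:51340684-51340894, minus strand), *Ets2* (chr16:95702157-95702406, plus strand) and *Elk1* (chrX:20950609-20950858, minus strand) are shown as promoters of the same behaviour without the 7-base form in the sequence printed, and the *Elf2* stretch holds no GGAA core at all. All coordinates are on GRCm38 (sequences from RefSeq, GRCm38.p6).
Elk4: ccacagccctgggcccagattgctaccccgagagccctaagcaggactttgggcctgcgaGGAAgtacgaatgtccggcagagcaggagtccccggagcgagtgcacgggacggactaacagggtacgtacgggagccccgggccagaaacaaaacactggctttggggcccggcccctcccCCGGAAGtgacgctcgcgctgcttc
Gabpa: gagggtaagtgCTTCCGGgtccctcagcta
Elf2: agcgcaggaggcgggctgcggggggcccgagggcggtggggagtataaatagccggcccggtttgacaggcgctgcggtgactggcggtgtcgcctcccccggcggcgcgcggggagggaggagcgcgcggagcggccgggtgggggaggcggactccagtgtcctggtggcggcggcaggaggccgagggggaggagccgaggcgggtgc
Ets2: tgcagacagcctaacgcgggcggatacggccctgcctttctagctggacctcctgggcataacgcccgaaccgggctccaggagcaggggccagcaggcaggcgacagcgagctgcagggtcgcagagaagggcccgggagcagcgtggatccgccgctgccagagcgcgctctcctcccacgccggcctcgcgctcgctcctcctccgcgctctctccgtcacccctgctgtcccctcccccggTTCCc
Elk1: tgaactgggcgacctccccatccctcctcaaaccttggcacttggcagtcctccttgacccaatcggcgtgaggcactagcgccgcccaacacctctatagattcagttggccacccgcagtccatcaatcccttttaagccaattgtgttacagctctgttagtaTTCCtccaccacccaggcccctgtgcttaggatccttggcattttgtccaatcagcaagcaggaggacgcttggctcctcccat
The search covered 11 promoter sequences of 7 of the 10 genes, each from 250 bases before to 50 bases after a start site, on both strands. CCGGAAG, which contains GGAA, was present in promoters of 2 of these 7 genes, *Elk4* and *Gabpa*, against 9.93% of all 27025 genes. By sequence it was 2 of 11, against 8.86% of all 32851 promoter sequences. In *Elk4* it lay on the gene's own strand at chr1:132007552-132007558, from base -68 to base -62 counted from the start site, and in *Gabpa* on the other strand at chr16:84835031-84835037, from base -93 to base -87. The bare core GGAA was present in 96.0% of all promoters, so its presence says little about any one gene. *Ets1*, *Fli1* and *Spi1* had no promoter sequence in the table used.

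At the RNA level the ETS genes were mostly lower in the cKO libraries, and *Ets1* differed most. With limma on log2(TPM + 1), 8 of the 10 genes had a fold change below 0, where 38.9% of all tested genes did, and their median log2 fold change was -0.68 against 0.16 for all genes. Scaling of the libraries by the median of ratios took these medians to -0.84 and 0.01. None of the 10 passed the adjusted p threshold of 0.05 in either direction (background 0.00% of tested genes lower and 0.00570% higher). At an unadjusted limma p under 0.05, 3 were lower (*Ets1*, *Elk3* and *Elf1*; background 6.45%) and 0 were higher (background 11.9%). The same 3 genes had every cKO library below every WT library (background 7.18%), and none had every cKO library above (background 18.7%). In exact permutation tests with 3 against 3 libraries p cannot be under 0.1, which is the value for these 3 genes. With the replicate number as a block in limma the count at an unadjusted p was 5 lower genes, with *Fli1* (adjusted p = 0.115) and *Spi1* (adjusted p = 0.117) added, while the share of all tested genes so called went from 6.45% to 8.52%. In sorted bulk cells, fewer cells of a type and less RNA per cell cannot be told apart.

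The summed level of the 10 genes was 304.9, 323.1 and 314.1 TPM in the WT libraries and 197.7, 178.6 and 219.0 TPM in the cKO libraries. The groups did not overlap, and the largest difference of means was that of *Ets1*, which also had the highest mean TPM in WT.

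**Figure D1:**
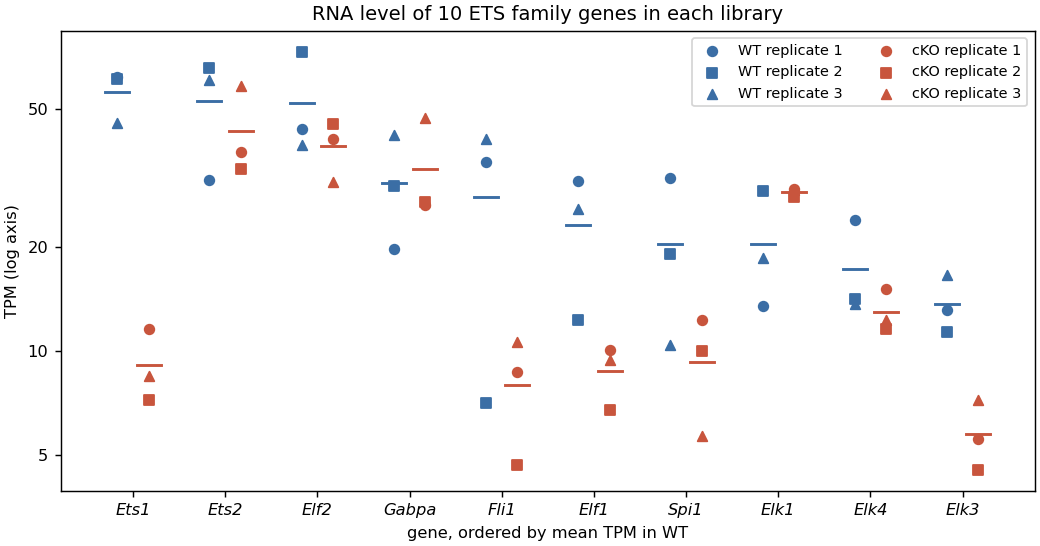
TPM of each ETS gene (log axis) in the 3 WT (blue) and 3 cKO (red) RNA-seq libraries, ordered by mean TPM in WT, with a bar at each group mean. *Ets1*, *Elf1* and *Elk3* have all cKO libraries below all WT libraries, and the WT replicate 2 point of *Fli1* lies at 7.04 TPM beside the cKO points.

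Among the ternary complex factors, which couple ERK signaling to immediate early genes, *Elk3* alone was separated between the labels. *Elk3*, which encodes a factor that represses transcription until it is phosphorylated, had 13.1, 11.3 and 16.6 TPM in WT and 5.55, 4.52 and 7.20 TPM in cKO. The highest cKO library lay below the lowest WT library, and the log2 fold change was -1.12 (SE 0.29, limma adjusted p = 0.140). *Elk1*, the best studied of the 3, had 13.4, 28.9 and 18.6 TPM in WT and 29.5, 27.8 and 29.2 TPM in cKO. The cKO libraries of *Elk1* were close together, and WT replicate 2 lay among them, so the groups overlapped (log2 fold change 0.55, SE 0.31, adjusted p = 0.380). *Elk4* had 24.0, 14.1 and 13.7 TPM in WT and 15.1, 11.6 and 12.3 TPM in cKO, with overlapping groups (-0.35, SE 0.30, adjusted p = 0.569). Without WT replicate 2, *Elk1* had a log2 fold change of 0.83 (adjusted p = 0.154).

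*Gabpa*, whose product is the DNA-binding subunit of the GABP complex, had 19.8, 30.0 and 42.1 TPM in WT and 26.5, 27.0 and 47.2 TPM in cKO. Both groups spanned nearly the same range, and the log2 fold change was 0.14 (SE 0.36, adjusted p = 0.865). Its sign turned to -0.13 without WT replicate 1 and to -0.13 without cKO replicate 3, so no direction can be given for *Gabpa*.

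*Ets1*, a regulator of lymphoid development that is also made by endothelial cells, had 61.9, 61.2 and 45.5 TPM in WT and 11.6, 7.21 and 8.43 TPM in cKO. The lowest WT library was far above the highest cKO library, and the mean of 56.2 ± 9.26 TPM (SD, n = 3) in WT was 6.20-fold that of 9.07 ± 2.25 TPM (SD, n = 3) in cKO. The log2 fold change was -2.52 (SE 0.27). The limma p of 2.92e-05 was rank 6 among all 17555 genes and rank 2 among those lower in cKO, with an adjusted p of 0.0856. Across the 12 alternative settings the log2 fold change of *Ets1* stayed between -2.69 and -2.38 and its adjusted p lay between 0.0585, with the replicate block, and 0.468. *Ets2*, the closest relative of *Ets1* and also a target of ERK phosphorylation, had 31.2, 65.9 and 60.8 TPM in WT and 37.5, 33.7 and 58.3 TPM in cKO. The *Ets2* groups overlapped over most of their range (log2 fold change -0.25, SE 0.36, adjusted p = 0.740).

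*Elf1*, which is active in lymphoid and endothelial cells, had 31.0, 12.3 and 25.8 TPM in WT and 10.1, 6.73 and 9.37 TPM in cKO. Its WT replicate 2 was the nearest to the cKO libraries but still above them (log2 fold change -1.23, SE 0.38, adjusted p = 0.176). At an unadjusted p, *Elf1* lost its call without WT replicate 1, without WT replicate 3 and without cKO replicate 2 (adjusted p = 0.510 from limma in the last). Its close relative *Elf2* had 43.7, 73.2 and 39.4 TPM in WT and 41.0, 45.4 and 30.8 TPM in cKO, with overlapping groups (log2 fold change -0.37, SE 0.30, adjusted p = 0.546).

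*Fli1*, a factor of megakaryocytes, lymphocytes and endothelial cells whose gene lies 92808 bp from *Ets1* on chromosome 9, had 35.2, 7.04 and 41.1 TPM in WT and 8.65, 4.65 and 10.6 TPM in cKO. WT replicate 2 fell within the cKO range and the other WT libraries were well above it (log2 fold change -1.42, SE 0.66, adjusted p = 0.302). Without WT replicate 2 the log2 fold change was -2.18 and the adjusted p was 0.0844. Within each numbered pair of libraries *Fli1* was lower in cKO, and with the replicate block its SE was 0.36 and its adjusted p was 0.115. *Spi1*, the master factor of myeloid cells, had 31.6, 19.1 and 10.4 TPM in WT and 12.2, 9.97 and 5.66 TPM in cKO. Only WT replicate 3 of *Spi1* overlapped the cKO range (log2 fold change -0.98, SE 0.46, adjusted p = 0.304), and without it the value was -1.37 and past the unadjusted threshold. *Spi1* too was lower in cKO within each numbered pair, and the block gave it an SE of 0.25 and an adjusted p of 0.117.

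**Figure D2:**
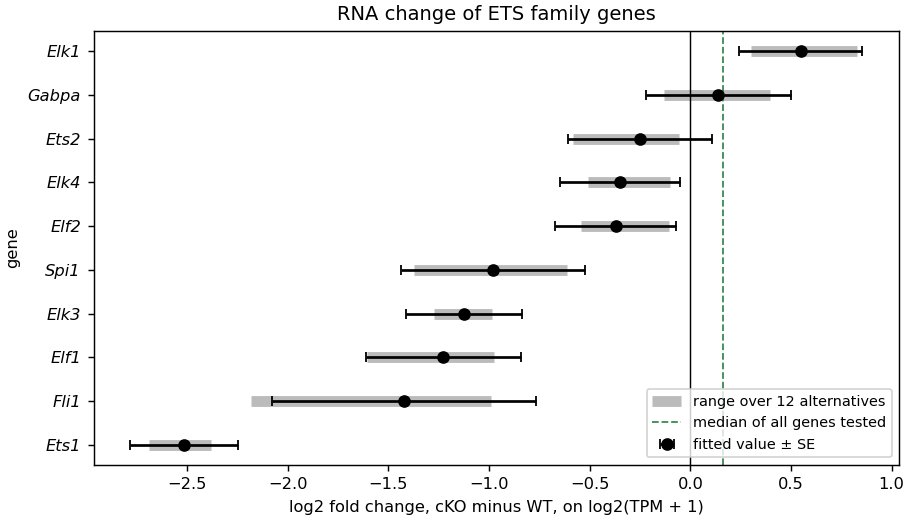
Log2 fold change (cKO minus WT, on log2(TPM + 1)) of each ETS gene with its SE (black), the range over the 12 alternative settings (grey) and the median of all tested genes (dashed green line, 0.16). *Ets1* stands at -2.52, and *Gabpa* is the one gene whose range crosses 0.

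TPM is scaled by transcript length, so levels can be ordered between genes. By mean TPM in WT the order was *Ets1*, *Ets2*, *Elf2*, *Gabpa*, *Fli1*, *Elf1*, *Spi1*, *Elk1*, *Elk4* and *Elk3*, and every pair of neighbours overlapped between libraries. In cKO the order was *Ets2*, *Elf2*, *Gabpa*, *Elk1*, *Elk4*, *Spi1*, *Ets1*, *Elf1*, *Fli1* and *Elk3*. *Ets1* thus moved from rank 1 to rank 7, and *Elk1* from rank 8 to rank 4. Among cKO neighbours, *Elk1* and *Elk4* did not overlap (lowest *Elk1* library 27.8 TPM, highest *Elk4* library 15.1 TPM), and all other pairs did.

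The genes nearest in pattern to a member follow as a description, because the libraries share their labels and 58 to 548 tested genes reached an r over 0.9 with one member. Over the 6 RNA-seq libraries, the genes most like *Ets1* were *Psme2* (Pearson's r 0.995), a subunit of the proteasome activator, *Tnip3* (0.994) and *Calhm6* (0.992). Those most like *Fli1* were *Tnfsf10* (0.999), the death ligand TRAIL, *Dock2* (0.998), a Rac activator of leukocytes, and *Zbtb32* (0.997). Genes close to *Elk1* included *Snx32* (0.991) and *Gpr179* (0.989), a receptor of ON bipolar cells. *Spi1* was followed by *Gm21188* (0.989), *Nfatc3* (0.982) and *Cnot6l* (0.981). Within the family, *Elf1* and *Fli1* were the most alike (0.947), and *Elk1* and *Elf1* the most opposed (-0.914).

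The rest of the family and its partners were read from lists of known genes. Of 16 other ETS-domain genes, 10 were tested. At an unadjusted p, 2 were below WT (6.45% of all tested genes) and 1 above (11.9%), and none passed the adjusted threshold. *Spib*, a relative of *Spi1* found in B cells and plasmacytoid dendritic cells, had 14.3, 6.38 and 11.3 TPM in WT and 1.04, 0.638 and 3.91 TPM in cKO (log2 fold change -2.13, SE 0.50, adjusted p = 0.126). *Elf4*, a relative of *Elf1* in lymphocytes, had a log2 fold change of -1.08 (adjusted p = 0.167), and *Spdef*, at 0 to 2.39 TPM, one of 0.87 (adjusted p = 0.268). The median of the 10 was -0.12.

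Of 13 proteins that share DNA sites with ETS factors or bind them, 11 were tested. At an unadjusted p, 4 were lower (6.45% of all tested genes) and none was higher (11.9%). The median log2 fold change was -0.65, against 0.16 for all tested genes. *Runx3*, a partner of ETS1 in T cells, had 23.8, 18.5 and 23.7 TPM in WT and 5.99, 2.54 and 5.04 TPM in cKO (log2 fold change -2.11, SE 0.33, adjusted p = 0.124). *Irf8*, a partner of PU.1 in myeloid and B cells, had 123, 79.3 and 130 TPM in WT and 36.8, 20.7 and 42.6 TPM in cKO (-1.73, SE 0.34, adjusted p = 0.124). The groups of *Runx3*, *Irf8* and *Runx2* (-1.72, adjusted p = 0.124) did not overlap, with cKO below WT as in 7.18% of all tested genes. *Srf* itself was 6.76 ± 2.86 TPM in WT and 4.33 ± 3.40 TPM in cKO (SD, n = 3 each; adjusted p = 0.515).

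Upstream of the ternary complex factors, the 17 genes of the ERK cascade had a median log2 fold change of 0.03. At an unadjusted p, 2 were higher and 1 was lower, shares close to those of all tested genes (11.9% and 6.45%). The higher genes were the RAF kinases *Braf*, with 20.0, 12.3 and 26.4 TPM in WT and 38.6, 36.5 and 37.6 TPM in cKO (0.97, SE 0.30, adjusted p = 0.177), and *Araf* (0.61, SE 0.19, adjusted p = 0.174).

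Downstream, the 13 immediate early genes with serum response elements all had lower means in cKO, where 38.9% of all tested genes did. *Srf* is among the 13 and was also counted among the partners above. At an unadjusted p, 5 of them were lower (6.45% of all tested genes), and 6 with the replicate block (8.52%). None passed the adjusted threshold, and the median log2 fold change was -0.76, against 0.16 for all tested genes. *Egr1*, a zinc finger factor, had 406, 623 and 631 TPM in WT and 235, 281 and 384 TPM in cKO (-0.88, SE 0.28, adjusted p = 0.183). *Junb* (-1.17, adjusted p = 0.165) and *Ier2* (-1.21, adjusted p = 0.216) also had groups that did not overlap (cKO below WT in 7.18% of all tested genes). *Fos*, the textbook target of ELK1 and SRF, had a mean of 3530 TPM in WT and 1811 TPM in cKO (-0.99, adjusted p = 0.209), with overlapping groups.

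The 14 nuclear genes for mitochondria that GABP is known to drive went the other way in sign, with 13 higher means and a median log2 fold change of 0.54. Of all 17555 tested genes 10733 were higher too, with a median of 0.16. None of the 14 passed either threshold, while with the replicate block 1 was higher at an unadjusted p. Median-of-ratios scaling left 11 of the 14 higher and 3 lower, 1 of these at an unadjusted p. The median was then 0.37, against 0.01 for all tested genes. The 12 myeloid genes that PU.1 activates all had lower means in cKO, where 38.9% of all tested genes did. At an unadjusted p, 4 were lower (6.45% of all tested genes), and 5 with the replicate block (8.52%). Their median log2 fold change was -0.68, against 0.16 for all tested genes. *Lyz2*, the macrophage lysozyme, had a log2 fold change of -1.80 (SE 0.24, adjusted p = 0.124), *Ncf1*, a subunit of the phagocyte oxidase, -1.42 (adjusted p = 0.151), *Msr1*, a scavenger receptor, -1.34 (adjusted p = 0.138), and *Cd68*, a lysosomal protein of macrophages, -1.13 (adjusted p = 0.124). Of 12 endothelial genes driven by ETS factors, 7 were tested and none passed either threshold (median -0.46). On this list, 5 genes are also among the endothelial markers below. With the replicate block 2 of the 7 were lower at an unadjusted p (8.52% of all tested genes).

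Markers of the cell types that carry these factors were read in the same libraries. *Thy1*, the gene of the sorted antigen, is made by mouse T cells as well as by RGCs, and was 67.7 ± 18.8 TPM in WT and 110 ± 17.6 TPM in cKO (SD, n = 3 each; adjusted p = 0.223). Of 13 T cell markers, 12 were lower at an unadjusted p (6.45% of all tested genes), and their sum was 452 to 1305 TPM in WT and 128 to 301 TPM in cKO. WT replicate 2, in which *Fli1* and *Elf1* were lowest among the WT libraries, also had the lowest WT sum of T cell markers (452.3 TPM) and of B cell markers (39.7 TPM). *Ets1* did not follow this order, with 61.2 TPM in WT replicate 2. Its lowest WT value, 45.5 TPM, was in replicate 3, where the T cell markers summed to 1143 TPM. *Spi1* was also lowest among WT in replicate 3 (10.4 TPM), which had the highest sum of myeloid markers (2898 TPM). *Cd3e*, a chain of the T cell receptor complex, had 83.1, 56.7 and 72.2 TPM in WT and 16.5, 12.4 and 9.13 TPM in cKO (log2 fold change -2.41, SE 0.29, adjusted p = 0.124).

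Of 6 tested B cell markers, 4 were lower at an unadjusted p (sums of 39.7 to 124.9 TPM in WT and 13.8 to 26.7 TPM in cKO). With the replicate block 5 were lower (8.52% of all tested genes). Without it, the shares of all tested genes beside the counts in this paragraph are 6.45% lower and 11.9% higher. Of 12 myeloid markers, of which 2 are also on the PU.1 target list, 4 were lower at an unadjusted p (1585 to 2898 TPM in WT, 939 to 1295 TPM in cKO). The summed endothelial markers overlapped between the labels (319 to 687 TPM in WT, 297 to 695 TPM in cKO). Most of this sum came from *Kdr* (164 to 590 TPM) and *Flt1* (72.2 to 202 TPM). The defining endothelial markers *Cdh5* and *Tek* were under 1 TPM in all 6 libraries. Of 6 tested endothelial markers, 1 was lower at an unadjusted p, and 2 with the replicate block (8.52%). In the fit without the block this was *Cldn5* (log2 fold change -1.30, SE 0.41, adjusted p = 0.180). Its groups did not overlap, with cKO below WT as in 7.18% of all tested genes. All 10 rod markers were higher at an unadjusted p (13376 to 18694 TPM in WT, 27648 to 51387 TPM in cKO), and 3 of 8 Mueller glia markers were lower (6833 to 13270 TPM in WT, 4706 to 10699 TPM in cKO). RGC markers summed to 145 to 201 TPM in WT and 222 to 250 TPM in cKO, with *Stmn2* and *Thy1* higher at an unadjusted p among 9 tested. Most of that sum came from *Thy1* and from *Isl1* (51.9 to 104 TPM), which bipolar and amacrine cells also express. The log2 fold changes of *Rbpms* (-0.41), *Pou4f1* (-0.64) and *Sncg* (-0.83) were below 0, and the median of the 9 was 0.11. The sums of T cell, B cell, myeloid, rod and RGC markers did not overlap between the labels, and their part in the ETS values was not tested.

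**Figure D3:**
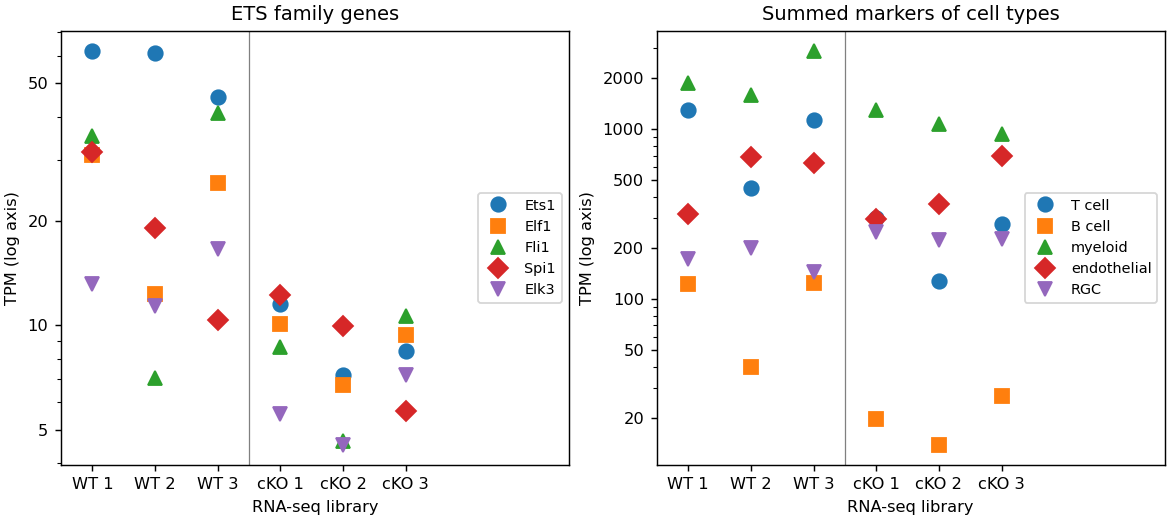
TPM (log axis) in each RNA-seq library of 5 ETS genes (left) and of the summed markers of 5 cell types (right), with a line between WT and cKO libraries. Both *Ets1* and the T cell markers are higher in all WT than in all cKO libraries, and WT replicate 2 is the lowest WT library for *Fli1*, *Elf1*, T cell markers and B cell markers. For *Ets1* and *Spi1* the lowest WT library is replicate 3, where the myeloid markers are highest.

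Chromatin at the ETS genes was compared through the authors' group means of normalized reads per region, which carry no replicate error. With 2 against 2 libraries no exact test can give a p under 0.333, so the values are a description. Regions were found at the ends of 6 of the 10 genes, and 51.5% of tested genes with a known position had one. All 6 lay over a start site. All had a peak in both WT libraries (61.8% of all regions) and in neither cKO library (55.1%). All were lower by over 2-fold in cKO (59.6% of all regions) and none was higher by over 2-fold (8.67%). The share lower by over 2-fold was 93.2% where both WT libraries had a peak, 93.0% among regions at the ends of tested genes, and 94.8% of tested genes with such a region had a lower one, so lower reads at ETS promoters were shared with most promoters in the table. All 6 were also lower by over 4-fold (40.6% of all regions and 71.6% of those at gene ends), and the median log2 difference was -3.35 against -2.58 for 6966 regions at the ends of tested genes. These 2 sets differed in their WT level, with median WT reads of 65.6 at the ETS regions and 33.6 at gene ends. Their median cKO reads were close, 6.57 and 6.15. The background was not matched on WT level, so whether the larger difference is particular to ETS promoters was not tested. *Ets1*, *Elk3*, *Fli1* and *Spi1* had no region at an end.

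The *Gabpa* promoter (chr16:84834609-84836287, GRCm38), which holds the printed CTTCCGG site and overlaps the end of *Atp5j*, had the most reads, 115 normalized reads in WT and 11.6 in cKO (log2 difference -3.31). The *Elf1* promoter (chr14:79480875-79482144), which overlaps the end of *Wbp4*, had 77.2 reads in WT and 6.59 in cKO (-3.55). That of *Elf2* (chr3:51340150-51341491) had 66.3 and 11.9 reads (-2.48), the smallest difference of the 6. The *Elk4* region (chr1:132007324-132008373) covers all 3 of its listed start sites and the CCGGAAG shown above, and had 64.9 and 6.23 reads (-3.38). *Ets2* (chr16:95701919-95703108) had 49.2 and 6.54 reads (-2.91). *Elk1* (chrX:20950381-20951091), whose region ends 574 bp from *Uxt*, had 24.6 and 2.36 reads (-3.38), the lowest level of the 6. The log2 differences were -3.38 and -3.31 for the genes with the 7-base form in the promoter window searched and -3.55 to -2.48 for the other 4, whose regions extend beyond that window and were not searched there.

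**Figure D4:**
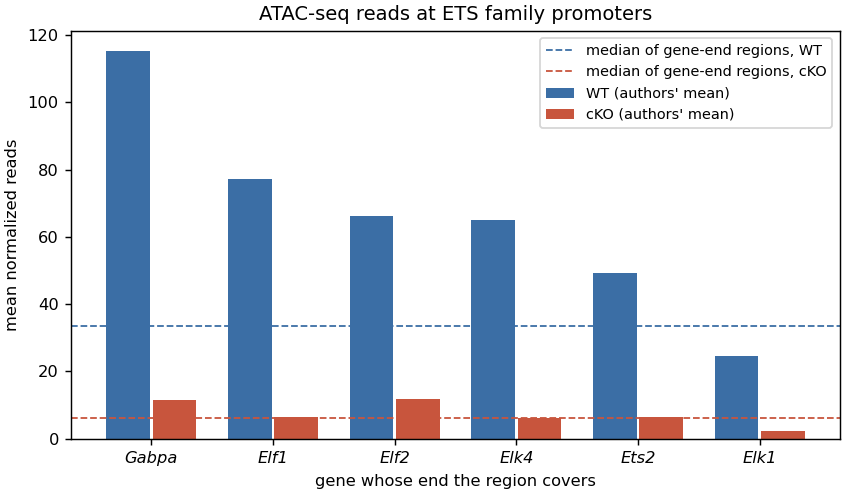
Mean normalized ATAC-seq reads (the authors' group means, with no replicate error) in WT (blue) and cKO (red) at the 6 regions over ETS promoters, with the medians of all regions at gene ends as dashed lines. WT bars run from 24.6 to 115 reads and cKO bars from 2.36 to 11.9.

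Among the 6 genes with a promoter region, lower reads went with either sign of RNA change. *Elk4*, *Ets2*, *Elf1* and *Elf2* had negative RNA fold changes, none past the adjusted threshold. *Elk1* and *Gabpa*, whose promoter regions were 10.4-fold and 9.92-fold lower in cKO, had positive RNA fold changes. For *Gabpa* the sign turned when single libraries were left out. *Ets1* and *Elk3*, whose RNA groups did not overlap, had no region at an end, so RNA and promoter could not be compared there. Of the genes with a promoter region, *Elf1* was the one whose RNA groups did not overlap, and its region had the largest log2 difference of the 6.

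Inside the gene bodies 6 further regions were listed. At *Ets1*, chr9:32695583-32696189 had 25.1 reads in WT and 6.36 in cKO (log2 difference -1.98), with peaks in both WT libraries and in cKO replicate 1. A second *Ets1* region, chr9:32664718-32665241, went the other way with 2.38 and 7.73 reads (1.70) and had a peak in both cKO libraries and no WT library. At *Fli1*, chr9:32434166-32434854 had 10.9 and 9.78 reads (-0.16), a peak in 1 library of each label, and at *Elk3*, chr10:93300813-93301193 had 2.75 and 4.66 reads (0.76), likewise in 1 library of each label. The regions chr3:51275983-51276796 (43.4 and 3.32 reads, -3.71) and chr3:51277263-51277736 (18.5 and 4.17 reads, -2.15) lie within 1000 bp of the second start site of *Elf2* and had peaks in both WT libraries alone. The other 6 genes had no listed region within the body.

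The peak lists of single libraries were also counted at the gene ends. A peak lay within 1000 bp of an end of 6 of the 10 genes in each WT library, of 1 gene in cKO replicate 1 and of 2 genes in cKO replicate 2. Whole lists held 76522 and 42265 peaks in WT replicates 1 and 2, and 55902 and 68317 in cKO replicates 1 and 2. No share over all genes is set beside these counts, so they are a description. The genes with such a peak in WT are the 6 with a region, whose WT peaks are already given above. Their count is therefore no separate support for the region values. The cKO peaks were short ones outside the regions of the table, 1 at *Elf2* and 2 at *Ets1*, namely chr9:32635663-32635875 (213 bp) in cKO replicate 1 and chr9:32756864-32757122 (259 bp) at the other end in cKO replicate 2. Away from the ends, peaks within the 10 gene bodies numbered 21 and 26 in the WT libraries and 17 and 30 in the cKO libraries, so the libraries did not divide by label there.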

How the data were processed

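RNA was measured in 3 WT and 3 cKO libraries and chromatin accessibility in 2 WT and 2 cKO libraries, grouped by the sample labels. The authors computed the deposited TPM table with Salmon (1.0.0 in the submitters' processing notes) on the GENCODE annotation and tximport, with no scaling between libraries, and each library sums to between 995278 and 999315. The deposited ATAC-seq table gives, per region, the authors' mean of normalized reads in each group as log2, from DiffBind after Bowtie2 (2.3.5.1) and MACS2 (2.2.5) on GRCm38, and the deposited peak lists give positions alone. The authors' fold changes, p-values and FDRs, made with DESeq2 and DiffBind, were not used. Sequencing depth is not given in these units, so no counting error can be stated.

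Genes with at least 1 TPM in at least 3 of the 6 libraries were compared on log2(TPM + 1) by limma (version 3.58.1, R 4.3.3; moderated variances with an intensity trend), and p-values were adjusted by Benjamini-Hochberg over all 17555 genes at a threshold of 0.05. Low genes have their change understated on this scale. Two-sided exact permutation tests were run on single genes. Region values were set back to reads, and differences are cKO minus WT, with no test. A gene held a region or peak if one lay within 1000 bp of either end, and a peak was matched to a region by an overlap of at least 1 bp. Alternatives were a pseudocount of 0.1, no filter, median-of-ratios scaling, a mean TPM of at least 5, a replicate block, no trend, each library left out, windows of 3000 bp or of the start site alone, a 4-fold limit and a reciprocal overlap of 50%.

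The members, gene lists and cell type markers were chosen with earlier results of these data known. Beside the 10 members, genes were named if they passed the adjusted threshold or if their groups did not overlap at an unadjusted p under 0.05 (at most 4 a list, by size of change), and the 3 genes with the highest r were named for 4 members, except 1 gene that is not reported here. *Arid1a*, *Srf*, *Fos* and the RGC and endothelial markers given by level alone were named outside this rule, after their values were seen. Deviations of same-numbered WT and cKO libraries from their group means correlated at 0.334, 0.101 and 0.425, all over 0.1, so the fit with the replicate number as a block is given beside results whose call it changes. All other values come from the fit without it. Nothing in the sources says that the pools were separate animals at each number, and p-values measure the spread between these samples.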

Additional observations from a re-analysis of the deposited data

How the results depend on the processing

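No ETS gene passed the adjusted threshold under any of the 12 alternative RNA-seq settings, and 9 of the 10 kept their sign throughout. *Gabpa* turned to -0.025 with median-of-ratios scaling and to -0.13 without WT replicate 1 and without cKO replicate 3, and ran from -0.13 to 0.39 as libraries were left out. Scaling by the median of ratios moved the median of all genes from 0.16 to 0.01 and the genes at an unadjusted p from 2095 higher and 1133 lower to 1329 higher and 1677 lower, so 64.9% and 44.2% of them were higher, while the ETS genes stayed at 3 lower. With the replicate block, 5 ETS genes were lower at an unadjusted p and 1 gene of all was lower at an adjusted p, and the block changed no other ETS call. Without the trend, 4 genes of all were higher at an adjusted p. Leaving out each library in turn gave 2 to 4 ETS genes lower and 0 to 1 higher at an unadjusted p, 0 to 1 genes of all lower and 0 to 1 higher at an adjusted p, and 699 to 1321 lower and 976 to 2279 higher at an unadjusted p. The cause of these moves was not tested. At the chromatin level, all 6 regions were lower past 4-fold and with a window of 3000 bp, a window around start sites alone gave 8 regions, all lower, and a reciprocal overlap of 50% changed no peak call.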
